A study of Mus musculus with 8 samples.

Results

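The genes Apoe, Apod, Clu, Abca1, Abcg1, Lcat, Lrp1, Vldlr and Scarb1 make, load, remodel and take up the lipid particles of the brain, and they were followed in mouse brain cells sorted for GLAST, the glutamate transporter that radial glia and astrocytes carry on their surface. They were chosen by gene symbol, 9 of the 23284 genes in the deposited table, and all 9 had enough reads to be tested. RNA came from whole C57BL/6J brains, dissociated and enriched magnetically with an anti-GLAST antibody. The 4 libraries of postnatal day 8 (P8) are labelled astrocyte precursors and the 4 libraries of postnatal day 0 (P0) radial glia, and they are named here by age and replicate number. All animals were wild type, and no unsorted or GLAST-negative library was analysed here. The labels do not say whether replicates came from separate animals or from pools, and a p-value therefore reflects the spread among libraries alone, part of which may be technical.

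Cholesterol does not cross the blood-brain barrier in lipoproteins, so the brain makes and moves its own. Astrocytes are the main makers of apolipoprotein E, which is loaded with cholesterol and phospholipid by pumps of the ABC family and leaves the cell as a small particle resembling high-density lipoprotein. Lecithin-cholesterol acyltransferase esterifies the cholesterol in the particle, and receptors of the LDL receptor family and scavenger receptors take up the lipid. Nuclear receptors of the LXR type, which pair with RXR, switch on the pumps and Apoe when sterols accumulate.

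Slc1a3 encodes GLAST, the antigen of the sort. It stood at 3919, 5029, 3867 and 3718 CPM (counts scaled to each library total) in P8 1 to P8 4, against 228, 299, 331 and 323 CPM in P0 1 to P0 4. The antigen's transcript was therefore read in every library and was far higher at P8, by 3.89 ± 0.20 on the log2 scale (estimate ± SE, edgeR adjusted p = 2.21e-06). Without an unsorted or GLAST-negative library beside them, these values cannot show how far the sort enriched its cells at either age.

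Libraries held 63131890 to 94308235 counts at P8 and 30708719 to 54615722 counts at P0. Most markers of astrocytes were higher at P8 and markers of other cells differed as well. As background to the counts below, 24.5% of all 16808 genes tested were called higher and 25% lower at P8 (edgeR adjusted p under 0.05). The 12 astrocyte markers, Slc1a3 among them, summed to 15347 to 17994 CPM at P8, against 1731 to 2490 CPM at P0, and 9 of the 12 were called higher and 1 lower. The lower gene was Gjb6. Sox9 and Gja1 were not called, Gja1 averaging 785 CPM at P8 and 905 CPM at P0. The 10 choroid plexus markers summed to 211 to 3147 CPM at P8, against 27443 to 65452 CPM at P0, and all 10 were called lower. Endothelial markers summed to 302 to 656 CPM at P8 and to 1790 to 2631 CPM at P0, with 9 of 10 called lower. Markers of pericytes, smooth muscle and meninges summed to 506 to 1260 CPM at P8 and to 5701 to 10779 CPM at P0, with 6 of 10 called lower. Most of that P0 sum came from Igf2, Col1a2 and Col1a1, at means of 3319, 2516 and 1235 CPM. The pericyte and smooth muscle markers Acta2, Tagln, Cspg4 and Rgs5 were not called. In the other direction, 8 of 10 microglia markers (1493 to 5135 CPM at P8, 556 to 1438 CPM at P0), 8 of 10 oligodendrocyte lineage markers (1095 to 3512 CPM at P8, 637 to 782 CPM at P0, 1 lower) and all 9 measured neuron markers (97.2 to 467 CPM at P8, 24.9 to 98.8 CPM at P0) were called higher. The 6 markers of red blood cells summed to 57.5 to 129 CPM at P8 and 177 to 372 CPM at P0, and all 5 that were tested were called lower. No defining marker of these 8 cell types (such as Aqp4 for astrocytes, Ttr for choroid plexus, Cldn5 for endothelium, Cx3cr1 for microglia, Mbp for oligodendrocytes and Snap25 for neurons) was at 0 in any library. The part of these cells in the differences given here was not tested, and in such bulk libraries fewer cells of a type and less RNA per cell cannot be told apart.

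**Figure D1:**
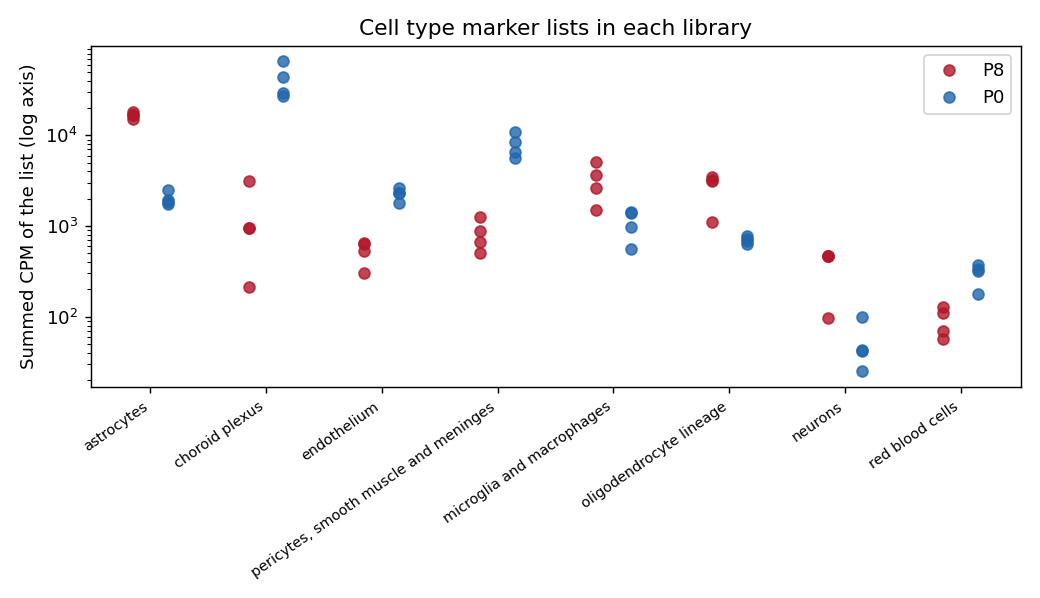
Summed CPM of 8 cell type marker lists (log axis) in each library, P8 in red and P0 in blue, 1 point per library. The astrocyte list sits at 15347 to 17994 CPM in P8 libraries and 1731 to 2490 CPM in P0 libraries, and the choroid plexus list at 211 to 3147 CPM in P8 libraries and 27443 to 65452 CPM in P0 libraries.

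The 9 genes lie on 9 different chromosomes. Positions are those of GENCODE M1 on NCBIM37 (mm9). Apoe spans chromosome 7 from 20281458 to 20284515 (minus strand), Apod chromosome 16 from 31296278 to 31314894 (minus) and Clu chromosome 14 from 66587320 to 66600385 (plus). Abca1 spans chromosome 4 from 53043659 to 53172767 (minus), Abcg1 chromosome 17 from 31194643 to 31252722 (plus) and Lcat chromosome 8 from 108463451 to 108467282 (minus). Among the receptors, Lrp1 spans chromosome 10 from 126975217 to 127058204 (minus), Vldlr chromosome 19 from 27290974 to 27328721 (plus) and Scarb1 chromosome 5 from 125757457 to 125821464 (minus). All 9 are annotated as protein-coding, and no exon of any of them overlaps an exon of another protein-coding gene.

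The 250 bases before the transcription start are shown for the genes with the largest changes (Apoe and Lcat, both higher at P8, and Apod, lower at P8) and for Abca1, a known LXR target whose ages overlapped. They are RefSeq sequences of GRCm38.p6 before the most upstream start, at chr7:19699189-19699438 (minus strand) for Apoe, chr8:105943403-105943652 (minus strand) for Lcat, chr16:31314809-31315058 (minus strand) for Apod and chr4:53159896-53160145 (minus strand) for Abca1. The table used for them gave 6 of the 9 genes. Capitals mark matches, on either strand, to TATAAA (the TATA box), GGGCGG (the GC box) or AGGTCA (a nuclear receptor half-site).
Apoe: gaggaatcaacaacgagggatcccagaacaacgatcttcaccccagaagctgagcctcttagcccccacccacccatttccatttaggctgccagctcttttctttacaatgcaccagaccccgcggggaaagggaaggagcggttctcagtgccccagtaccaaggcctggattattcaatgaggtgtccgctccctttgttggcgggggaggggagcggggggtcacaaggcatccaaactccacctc
Lcat: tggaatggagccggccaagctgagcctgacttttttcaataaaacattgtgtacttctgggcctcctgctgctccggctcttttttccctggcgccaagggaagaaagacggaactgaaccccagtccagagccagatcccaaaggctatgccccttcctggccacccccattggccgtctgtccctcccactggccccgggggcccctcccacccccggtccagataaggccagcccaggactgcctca
Apod: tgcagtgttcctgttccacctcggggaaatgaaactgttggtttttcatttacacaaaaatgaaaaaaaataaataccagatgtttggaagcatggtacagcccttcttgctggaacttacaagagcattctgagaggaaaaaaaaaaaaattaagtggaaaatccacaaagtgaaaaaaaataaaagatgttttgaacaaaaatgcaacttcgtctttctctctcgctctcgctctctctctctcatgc
Abca1: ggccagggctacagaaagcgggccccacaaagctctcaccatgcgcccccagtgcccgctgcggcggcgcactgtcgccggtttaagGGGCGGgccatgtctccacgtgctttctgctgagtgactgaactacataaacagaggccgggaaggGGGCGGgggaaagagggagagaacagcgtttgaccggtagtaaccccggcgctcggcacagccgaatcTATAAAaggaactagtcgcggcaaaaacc
Among these 4 windows, only that of Abca1 held a match to any of the 3 patterns. It has TATAAA beginning 29 bases before the start and GGGCGG beginning at 163 and 97 bases. Of 32851 promoter windows of the same length, 12.4% held TATAAA, 32.7% GGGCGG and 14% AGGTCA. The Apod window is poor in G and C, at 36.4%, against 57.2% for Apoe, 60.8% for Lcat, 61.6% for Abca1 and a median of 52.4% over all windows. A match or its absence describes these letters only.

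Of the 9 genes, 3 rose (Apoe, Clu and Lcat), 3 fell (Apod, Abcg1 and Scarb1) and 3 did not pass the test (Abca1, Lrp1 and Vldlr) at an adjusted p under 0.05 (edgeR quasi-likelihood test, Benjamini-Hochberg adjustment over all genes). Of all 16808 genes tested, 49.5% were called, 24.5% higher and 25% lower at P8, so a share of 6 in 9 stands not far above that background. The median log2 fold change was 0.17 for the 9 genes and 0.04 for all genes tested. P8 and P0 libraries did not overlap in CPM for 6 genes (47.2% of all tested genes). All P8 libraries were above all P0 libraries for 3 of them (20.9% of all tested genes) and below for 3 (26.3%).

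**Figure D2:**
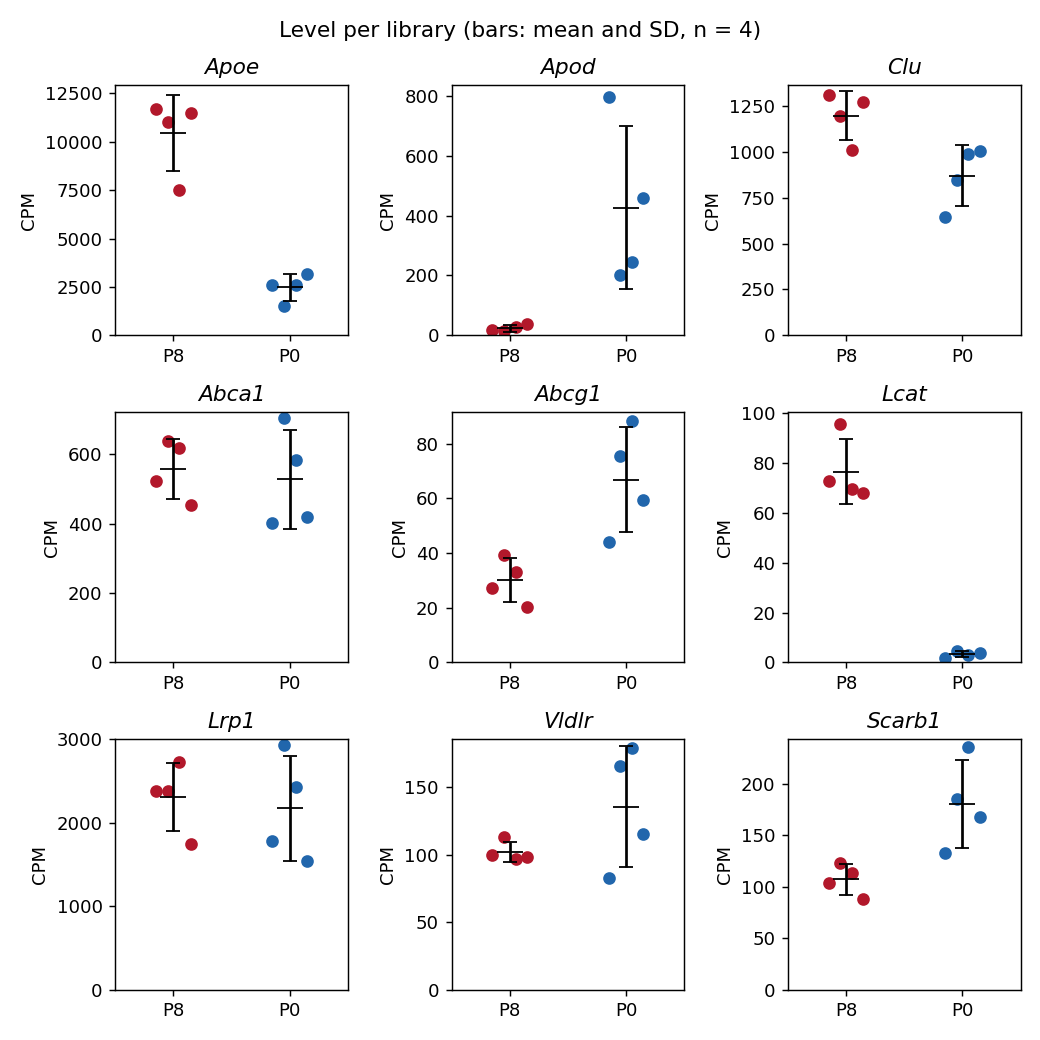
CPM of each of the 9 genes (linear axes from 0) in the 4 P8 libraries (red) and 4 P0 libraries (blue), with mean and SD as black bars. The ages are separate for Apoe, Apod, Clu, Abcg1, Lcat and Scarb1 and overlap for Abca1, Lrp1 and Vldlr.

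Among the lipid carriers, Apoe was by far the most abundant per length. It stood at 11717, 11038, 7530 and 11467 CPM in P8 1 to P8 4, against 2587, 1520, 2625 and 3159 CPM in P0 1 to P0 4. The lowest P8 library, P8 3, was still above every P0 library, and P0 2 was the lowest at P0. The rise was 4.48-fold with a 95% interval of 2.95 to 6.80 (2.16 ± 0.27 on the log2 scale, edgeR adjusted p = 0.000146). Per length, Apoe reached 8344 ± 1566 RPKM at P8, and 1977 ± 549 RPKM at P0 (SD, n = 4), ranking 1 at P8 and 5 at P0 among all genes of the table by mean RPKM (counts per length and library total).

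Clu encodes clusterin, also called apolipoprotein J, a chaperone of extracellular proteins that travels on lipoproteins. Its values were 1310, 1197, 1009 and 1270 CPM in P8 1 to P8 4, against 643, 849, 987 and 1004 CPM in P0 1 to P0 4. The ages only just separated, since P8 3 stood barely above P0 4. A rise of 1.46-fold (95% interval 1.11 to 1.92) was called, at 0.54 ± 0.18 on the log2 scale (edgeR adjusted p = 0.0287). This call was lost in 7 of 16 alternative fits, among them those without P8 1, P8 2, P8 4, P0 1 or P0 2, where the edgeR adjusted p was 0.0513 to 0.0811.

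Apod encodes a lipocalin that binds arachidonic acid and steroids, and it was lower at P8. Apod stood at 16.6, 12.9, 27.5 and 37.6 CPM in P8 1 to P8 4, against 797, 202, 245 and 459.8 CPM in P0 1 to P0 4. All P8 libraries were below all P0 libraries, and P0 1 was the highest. The fall was 17.4-fold (95% interval 7.72 to 39.0), or -4.12 ± 0.52 on the log2 scale (edgeR adjusted p = 0.000164), and without P0 1 the log2 fold change was -3.61. A fall or rise of at least 16-fold was called for 3.87% of all genes tested.

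Apod was nearest in profile to Dcn, the decorin gene of fibroblasts and a defining marker of the pericyte, smooth muscle and meningeal list. Over the 8 libraries, the root mean square difference between their centred log2 CPM profiles was 0.37, the smallest among 10926 genes with a mean of at least 10 CPM. For the other members the nearest gene was closer, at 0.07 to 0.17. Dcn stood at 9.36, 14.2, 31.4 and 25.3 CPM in P8 1 to P8 4, against 485, 166, 190.3 and 269.9 CPM in P0 1 to P0 4. Both genes had their highest value in P0 1 and their next highest in P0 4. The summed marker list of these cells was also highest in P0 1, at 10779 CPM, but was lowest at P0 in P0 4, at 5701 CPM. The second nearest gene was Efemp1, an extracellular matrix gene, at 6.69 ± 1.90 CPM at P8 and 114 ± 67.3 CPM at P0 (SD, n = 4; difference 0.44). Which cells carried Apod was not tested.

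Both lipid pumps were read in every library, and they differed from each other. Abca1 encodes the pump that loads lipid-poor apolipoproteins with cholesterol and phospholipid. It stood at 523, 638, 618 and 453 CPM in P8 1 to P8 4, against 402, 706, 583 and 420.2 CPM in P0 1 to P0 4. The ages overlapped, with the highest value and the lowest both at P0. The estimate was 0.17 ± 0.21 on the log2 scale (edgeR adjusted p = 0.529), with a 95% interval of 0.813- to 1.55-fold.

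Abcg1 encodes the half-transporter that passes sterol on to particles already carrying lipid. Its values were 27.4, 39.2, 33.2 and 20.4 CPM in P8 1 to P8 4, against 44.0, 75.4, 88.1 and 59.5 CPM in P0 1 to P0 4. Every P8 library was below every P0 library, P8 2 lying just under P0 1. Abcg1 fell 2.08-fold (95% interval 1.40 to 3.10; -1.06 ± 0.26 on the log2 scale, edgeR adjusted p = 0.00705).

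The balance between the pumps differed between P8 and P0 libraries. The ratio of Abca1 to Abcg1 in RPKM was 10.8, 9.23, 10.5 and 12.6 in P8 1 to P8 4, against 5.19, 5.31, 3.75 and 4.01 in P0 1 to P0 4. Averaged on the log2 scale, the ratio was 2.38-fold higher at P8 (mean log2 ratio 3.42 ± 0.18 at P8 and 2.17 ± 0.26 at P0, SD, n = 4; two-sided exact permutation p = 0.0286, 0.0381 adjusted over 4 ratios). With 4 libraries against 4, 0.0286 is the smallest p that this test can give. The ratio was chosen with earlier results of these data known. Abcg1 was already called lower with its ages apart, and Abca1 was not called. The p of the ratio is therefore not independent of the call of Abcg1. Such a ratio is taken within a library and does not depend on how libraries are scaled. It may still depend on the cells in each library, whose marker sums differed between the ages. The part of these cells in the ratio was not tested.

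Lcat, the enzyme that esterifies cholesterol on the particle, had the largest rise of the 9 genes in these fits. It stood at 72.7, 95.8, 69.7 and 67.9 CPM in P8 1 to P8 4, against 1.77, 4.56, 3.08 and 3.64 CPM in P0 1 to P0 4. The P8 values rest on 4328 to 6858 counts per library and the P0 values on 86 to 196. Lcat rose 25.1-fold (95% interval 15.9 to 39.9; 4.65 ± 0.30 on the log2 scale, edgeR adjusted p = 4.24e-06). Nearest to it in profile were Chrdl1, which encodes a secreted BMP antagonist (104 ± 16.8 CPM at P8, 4.11 ± 1.01 CPM at P0), and Grm3, a metabotropic glutamate receptor gene (226 ± 33.7 CPM at P8, 8.15 ± 2.02 CPM at P0), each with a root mean square difference of 0.17 (SD, n = 4).

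Lrp1 encodes a large endocytic receptor that binds apolipoprotein E and many other ligands. It stood at 2380, 2377, 2730 and 1746 CPM in P8 1 to P8 4, against 1786, 2933, 2434 and 1547 CPM in P0 1 to P0 4. The highest and the lowest of the 8 values were both at P0. The estimate was 0.17 ± 0.23 on the log2 scale (95% interval 0.788- to 1.61-fold, edgeR adjusted p = 0.561). Lrp1 and Abca1 had their lowest P8 value in the same library, P8 4, and both stood highest at P0 in P0 2.

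Vldlr encodes a receptor for apolipoprotein E and, with Lrp8, for reelin. Its values were 99.8, 113, 96.5 and 98.2 CPM in P8 1 to P8 4, against 82.4, 166, 179 and 115 CPM in P0 1 to P0 4. P0 1 lay below all P8 libraries and the other P0 libraries above them. No difference was called (-0.32 ± 0.22 on the log2 scale, 95% interval 0.566- to 1.13-fold, edgeR adjusted p = 0.254). Without P0 1 it was called lower at P8, with a log2 fold change of -0.49 (edgeR adjusted p = 0.0365). The ratio of Lrp1 to Vldlr in RPKM, 9.92 to 15.8 at P8 and 7.49 to 12.1 at P0, also overlapped (two-sided exact permutation p = 0.114, 0.114 adjusted over 4 ratios).

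Scarb1 encodes the scavenger receptor that exchanges cholesteryl esters with high-density lipoprotein. It stood at 104, 123, 113 and 88.4 CPM in P8 1 to P8 4, against 133, 185, 236 and 168 CPM in P0 1 to P0 4. Each P8 library was below each P0 library. The fall was 1.59-fold (95% interval 1.19 to 2.11; -0.67 ± 0.18 on the log2 scale, edgeR adjusted p = 0.0136). Endothelial markers were lower in the same P8 libraries (302 to 656 CPM summed, against 1790 to 2631 CPM at P0). So were the summed markers of choroid plexus, of red blood cells and of pericytes, smooth muscle and meninges. The part of any of these cells in the fall of Scarb1 was not tested.

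**Figure D3:**
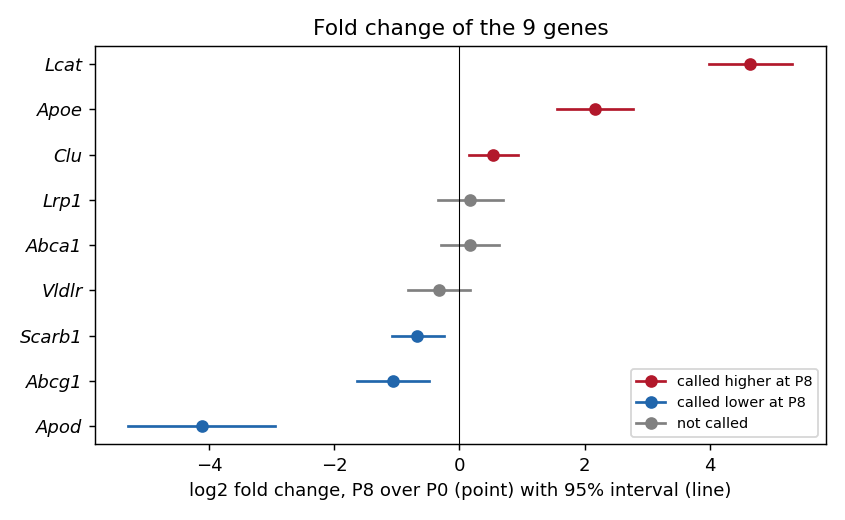
Log2 fold change of P8 over P0 from the edgeR fit (points) with 95% intervals (lines) for the 9 genes, sorted by size. Lcat (4.65), Apoe (2.16) and Clu (0.54) lie to the right of 0, Apod (-4.12), Abcg1 (-1.06) and Scarb1 (-0.67) to the left, and the intervals of Abca1, Lrp1 and Vldlr include 0.

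Per length, Apoe and Clu led at both ages and the order below them differed. At P8 the mean RPKM ran from Apoe (8344) through Clu (662), Lrp1 (155), Lcat (56.2), Abca1 (54.4), Scarb1 (34.5), Apod (12.7) and Vldlr (12.3) to Abcg1 (5.17). In that order 2 neighbouring pairs overlapped over the 4 libraries, Lcat with Abca1 and Apod with Vldlr. At P0 it ran from Apoe (1977) through Clu (482), Apod (229), Lrp1 (146), Scarb1 (58.2), Abca1 (51.4), Vldlr (16.3) and Abcg1 (11.5) to Lcat (2.39). There Clu overlapped Apod, Apod overlapped Lrp1, Scarb1 overlapped Abca1 and Vldlr overlapped Abcg1. Lcat ranked 4 of 9 at P8 and 9 of 9 at P0, and Apod 7 of 9 at P8 and 3 of 9 at P0.

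Apoe made up 86.7% to 90.4% of the summed RPKM of the 9 genes at P8, against 56.4% to 71.1% at P0. Apod made up 0.0706% to 0.213% at P8 and 4.24% to 13.9% at P0. Relative to Clu, Apoe stood at a ratio of 12.9, 13.3, 10.8 and 13.0 in P8 1 to P8 4, against 5.81, 2.59, 3.84 and 4.55 in P0 1 to P0 4. That ratio was 3.10-fold higher at P8, and the ratio of Apoe to Apod 72.8-fold higher (408 to 1269 at P8, 4.83 to 15.9 at P0). In both cases the ages did not overlap, with a two-sided exact permutation p = 0.0286 (0.0381 adjusted over 4 ratios), the smallest the design allows. For Apoe to Apod this separation was fixed in advance, because Apoe was already higher and Apod already lower in every P8 library. The p of that ratio therefore adds nothing to the calls of the genes. The p of Apoe to Clu is likewise not independent of the call of Apoe. The share of Apoe was higher in each P8 library than in any P0 library.

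**Figure D4:**
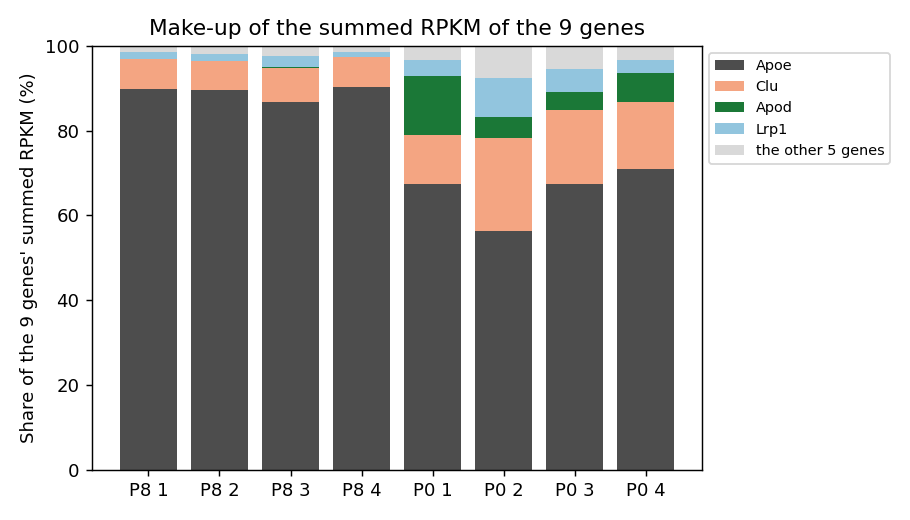
Share of the summed RPKM of the 9 genes (percent, stacked) taken by Apoe, Clu, Apod, Lrp1 and the other 5 genes in each P8 and P0 library. Apoe takes 86.7% to 90.4% in P8 libraries and 56.4% to 71.1% in P0 libraries, and the Apod band is visible at P0 (4.24% to 13.9%) only.

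Other genes of lipid transport were grouped into 7 lists with 119 genes. All were in the table and 105 were tested, of which 28 were higher and 36 lower at P8, or 61% called against the 49.5% of all genes. Their median log2 fold change was -0.17, against 0.04 for all genes tested. The share called was 40.0% for apolipoproteins, 73.3% for ABC transporters, 68.2% for the LDL receptor family and 61.5% for scavenger receptors. It was 64.3% for remodelling enzymes, 58.3% for intracellular sterol genes and 41.7% for LXR and RXR regulators. The counts and medians of each list below are to be read against these values of all genes.

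The 17 other apolipoprotein genes were scarce beside Apoe. Only 5 had enough reads to be tested, and the other 12 had means of at most 0.105 CPM at P8 and 0.444 CPM at P0. Of those 5, 2 fell and the other 3 did not pass the test (median log2 fold change -1.07). Apob, the core protein of large lipoproteins, averaged 1.53 ± 1.34 CPM at P8 and 8.08 ± 5.05 CPM at P0 (SD, n = 4; log2 fold change -2.28, edgeR adjusted p = 0.0169). Its log2 fold change was -3.06 without P8 2 and -1.76 without P0 2, where the call was narrow (edgeR adjusted p = 0.0493). Apoa2, a protein of high-density lipoprotein, fell to 0.61 ± 0.115 CPM at P8, against 2.25 ± 0.628 CPM at P0 (edgeR adjusted p = 0.00207). Apoc1 lies 3450 bases from Apoe on chromosome 7 and is transcribed in the same direction. It stood at 11.3, 11.7, 6.54 and 11.9 CPM in P8 1 to P8 4, against 3.20, 0.488, 4.63 and 9.03 CPM in P0 1 to P0 4, and the ages overlapped (log2 fold change 1.33, edgeR adjusted p = 0.106). Like Apoe, it was lowest at P8 in P8 3, and at P0 lowest in P0 2 and highest in P0 4. Of genes given below, Scp2 was also lowest in P8 3 and P0 2 (189 and 97.6 CPM). Gpihbp1 was likewise lowest at P0 in P0 2 and highest in P0 4 (11.2 and 32.8 CPM). These low and high libraries are therefore not particular to the pair. Apoc1 was called higher without P0 4 (log2 fold change 1.98, edgeR adjusted p = 0.0278) and, with all libraries, by limma-voom (log2 fold change 1.70, adjusted p = 0.0427).

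Of 15 tested ABC transporters related to Abca1 and Abcg1, 3 rose and 8 fell, with a median log2 fold change of -0.95. Abca4, the retinoid flippase first known from photoreceptors, fell to 10.2 ± 7.31 CPM at P8, against 409 ± 162 CPM at P0 (SD, n = 4; log2 fold change -5.25, edgeR adjusted p = 3.43e-05), and the log2 fold change was -5.85 without P8 4. Abcg5 and Abcg8, which together form a sterol pump of liver and gut, averaged 0.242 ± 0.068 and 0.0716 ± 0.0406 CPM at P8, against 10.5 ± 6.5 and 2.64 ± 1.26 CPM at P0. Exons of these genes overlap on opposite strands, and since the kit does not mark strand, reads of one may have been given to the other. Abca6 fell to 2.24 ± 0.828 CPM at P8, against 10.9 ± 1.11 CPM at P0. Abca3, a lipid transporter of lamellar bodies in lung, was highest at P8 in RPKM among them and was called higher by a narrow margin (193 ± 23.4 CPM at P8, 149.8 ± 27.6 CPM at P0, edgeR adjusted p = 0.0421), a call lost in 8 of 16 alternative fits. Choroid plexus markers were lower in the same P8 libraries, and their part in these falls was not tested.

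The LDL receptor family and its partners split, with 8 of 22 higher and 7 lower (median log2 fold change 0.10). Reln, the secreted ligand of Vldlr and Lrp8, rose to 234 ± 94.3 CPM at P8, against 24.2 ± 4.55 CPM at P0 (log2 fold change 3.34, edgeR adjusted p = 2.35e-05). Dab1, the adaptor that passes the reelin signal on inside the cell, rose to 88.4 ± 2.21 CPM at P8, against 12.8 ± 5.07 CPM at P0 (edgeR adjusted p = 5.77e-05). Neither reelin receptor passed the test. Lrp8, named here for this role after its values were seen, was at 110.2 ± 10.6 CPM at P8 and 112 ± 31.8 CPM at P0 (log2 fold change 0.06, edgeR adjusted p = 0.818, with the sign turned at -0.12 without P0 1 and -0.02 without TMM). Lrp1b, the close relative of Lrp1, rose to 53.6 ± 7.06 CPM at P8, against 6.4 ± 2.53 CPM at P0 (log2 fold change 3.15, edgeR adjusted p = 2.03e-05), and Lrp11 to 30.3 ± 6.82 CPM at P8, against 5.3 ± 2.02 CPM at P0. Lrpap1, the chaperone that keeps receptors of this family from binding ligands too early, fell to 136 ± 13.1 CPM at P8, against 306 ± 41.3 CPM at P0 (log2 fold change -1.08, edgeR adjusted p = 0.000233). Neuron markers were higher in the same P8 libraries, from 97.2 CPM in P8 2 to 467 CPM in P8 4, and oligodendrocyte lineage markers were too, from 1095 CPM in P8 2 to 3512 CPM in P8 3. Reln, at 237, 111, 341 and 245 CPM in P8 1 to P8 4, was likewise lowest in P8 2 and highest in P8 3. The part of either cell type in the rise of Reln was not tested.

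Scavenger receptors other than Scarb1 gave 5 higher and 3 lower of 13 (median log2 fold change 0.19). Megf10, an engulfment receptor of astrocytes, rose to 71.3 ± 10.4 CPM at P8, against 18.2 ± 5 CPM at P0 (log2 fold change 2.05, edgeR adjusted p = 4.31e-05). Cd36, a receptor for oxidised lipoproteins and fatty acids, averaged 42.4 ± 23.1 CPM at P8 and 11.9 ± 3.68 CPM at P0, and the microglial lipid receptor Trem2 119 ± 63.5 CPM at P8 and 36.4 ± 25.1 CPM at P0. The ages overlapped for Trem2 and not for Cd36. Both were highest in P8 2, the library in which microglia markers summed highest (5135 CPM), and the call of Trem2 (edgeR adjusted p = 0.025) was lost in 4 of 16 alternative fits, among them those without P8 2 (0.0671), P8 1 (0.0557) or P0 2 (0.0607). Scarf2 fell to 5.94 ± 1.33 CPM at P8, against 65.4 ± 10.9 CPM at P0, and Stab2, a receptor of sinusoidal endothelium, to 0.413 ± 0.236 CPM at P8, against 3.72 ± 3.49 CPM at P0. The P0 level of Stab2 stood highest in P0 2, and its log2 fold change was -3.08 with and -2.20 without that library.

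Among 14 remodelling enzymes and binding proteins, 3 rose and 6 fell (median log2 fold change -0.45). Pla2g7, the lipoprotein-associated phospholipase that breaks down platelet-activating factor, rose to 902 ± 143 CPM at P8, against 73.2 ± 24 CPM at P0 (log2 fold change 3.71, edgeR adjusted p = 7.55e-06). Pltp, the phospholipid transfer protein, fell to 198 ± 38.9 CPM at P8, against 779 ± 123 CPM at P0 (log2 fold change -1.89, edgeR adjusted p = 3.66e-05), and one of its exons overlaps Ctsa on the other strand. Gpihbp1, which holds lipoprotein lipase on capillary endothelium, fell to 0.199 ± 0.0637 CPM at P8, against 23.7 ± 9.18 CPM at P0, the largest fall in these lists (log2 fold change -6.80). Pon1, a lipoprotein-borne esterase, fell to 0.288 ± 0.221 CPM at P8, against 19 ± 8.08 CPM at P0. Endothelial and choroid plexus markers were lower in the same P8 libraries, and the part of these cells in the falls of this list was not tested.

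Of 24 genes that move, store or hydroxylate sterol inside the cell, 8 rose and 6 fell (median log2 fold change 0.12). Cyp46a1, the hydroxylase that lets cholesterol leave the brain, rose to 22.7 ± 0.966 CPM at P8, against 8.55 ± 2.95 CPM at P0 (edgeR adjusted p = 0.000634), and the sterol carrier gene Scp2 to 225 ± 24.3 CPM at P8, against 136 ± 27.4 CPM at P0. Ch25h, another cholesterol hydroxylase, fell to 0.216 ± 0.0906 CPM at P8, against 1.83 ± 0.572 CPM at P0. The oxysterol-binding protein gene Osbpl5 fell to 17.2 ± 3.26 CPM at P8, against 67.1 ± 11.5 CPM at P0, and caveolin 1 (Cav1) to 35.6 ± 11.6 CPM at P8, against 138 ± 71.5 CPM at P0.

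Of 12 LXR, RXR and related regulators, 1 was higher and 4 were lower (median log2 fold change -0.20). The share called, 41.7%, was below the 49.5% of all genes tested. The RXR genes differed. Rxra fell to 43.2 ± 6.32 CPM at P8, against 178 ± 43.6 CPM at P0 (log2 fold change -1.96, edgeR adjusted p = 3.66e-05), while Rxrg rose to 10.5 ± 1.73 CPM at P8, against 4.04 ± 0.686 CPM at P0 (log2 fold change 1.47, edgeR adjusted p = 0.000384). Rxrb, named after its values were seen, was not called, at 71.8 ± 6.53 CPM at P8 and 86.7 ± 5.38 CPM at P0 (log2 fold change -0.19, edgeR adjusted p = 0.169). The LXR beta gene Nr1h2, named after its values were seen, fell to 57.1 ± 4.49 CPM at P8, against 84.2 ± 8.95 CPM at P0 (log2 fold change -0.48, edgeR adjusted p = 0.00949). LXR alpha (Nr1h3) was called lower as well, at 4.12 ± 0.551 CPM at P8 and 6.74 ± 1.43 CPM at P0 (edgeR adjusted p = 0.0376), a call lost in 7 of 16 alternative fits, among them those without any 1 P8 library and those without P0 1 or P0 2. Pparg fell to 0.389 ± 0.0861 CPM at P8, against 1.97 ± 0.67 CPM at P0. Srebf1, a target of LXR and the highest of these genes in RPKM at P8, was at 413 ± 56.7 CPM at P8 and 336 ± 55.3 CPM at P0 (edgeR adjusted p = 0.0635, 0.0266 without P0 3 and 0.0456 by limma-voom). An exon of Srebf1 overlaps Rai1 on the other strand.

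**Figure D5:**
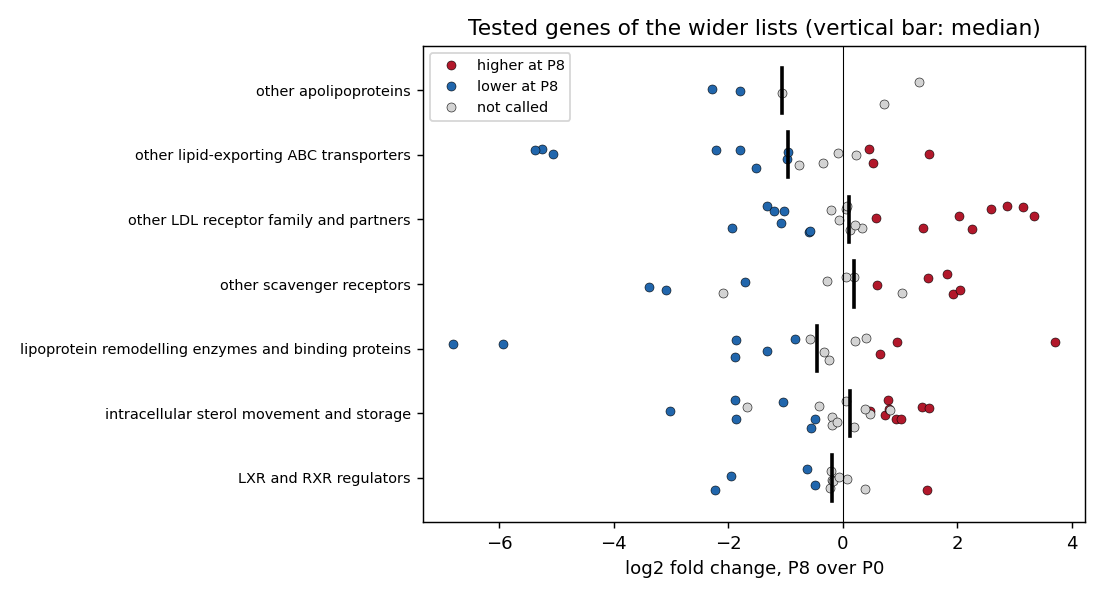
Log2 fold change of P8 over P0 for the 105 tested genes of 7 lists of lipid transport, 1 point per gene, red where called higher at P8, blue where called lower and grey where not called, with each list's median as a vertical bar. The ABC transporter list has 8 of 15 genes called lower (median -0.95), and the LDL receptor family has 8 of 22 called higher and 7 lower (median 0.10).

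The genes nearest in profile, picked from the 10926 searched, differed least for Abca1 and Scarb1 and most for Apod. Apoe was nearest to Dbndd2 (74.2 ± 8.62 CPM at P8, 16.4 ± 4.15 CPM at P0) and Mfap3l (41.7 ± 4.86 CPM at P8, 9.26 ± 2.40 CPM at P0), each with a root mean square difference of 0.13 between centred log2 CPM profiles. Clu was nearest to the carbonic anhydrase gene Car2 (0.09) and Slc48a1 (0.12), Abca1 to the potassium-chloride cotransporter gene Slc12a4 (0.07) and Uhrf1bp1 (0.09), and Abcg1 to the corepressor gene Bcor (0.10) and Fnip2 (0.12). For the receptors, Lrp1 was nearest to the receptor phosphatase gene Ptprf and to Herc2 (0.12 each), Vldlr to Ssfa2 and the kinase gene Mapk6 (0.11 each), and Scarb1 to Tctn1 (0.07) and Chd2 (0.09).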

How the data were processed

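RNA-seq counts, CPM and RPKM of 23284 genes in 8 libraries were read from 1 deposited table. The authors deposited whole-number counts per gene and library, per the file headers. The deposited CPM values are counts over the library total, and the deposited RPKM values are CPM per kilobase of the deposited gene length (listed in bases beside the authors' values as another column, per the file headers), to a relative difference of 5e-12. TopHat and mm9 appear in the submitters' processing notes. For the read counter and annotation, no source used here gives a name. The TruSeq kit v2, per the labels' protocols, does not mark strand.

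P8 and P0 were compared on the deposited counts by edgeR 4.0.16 under R 4.3.3 (filterByExpr with a minimum count of 10 and total of 15, TMM, glmQLFit, glmQLFTest, two-sided, all 8 libraries, no covariate), adjusted by Benjamini-Hochberg over 16808 genes. Standard errors follow from the F statistic, and 95% intervals use the fit's degrees of freedom. The same code was tested on simulated data with far fewer changed genes than were called here. That test therefore says little about errors in these data. Ratios of RPKM were compared by exact permutation over libraries. At these depths 3 counts correspond to 0.0318 to 0.0475 CPM at P8 and 0.0549 to 0.0977 CPM at P0, for counting error only. Shared replicate numbers were not treated as pairs.

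The members, lists, ratios and tests were chosen with earlier results of these data known. Besides the 9 genes and Slc1a3, the rule names from each wider list up to 4 called genes, by size of change, that average 1 CPM or more at the higher age, plus the highest in RPKM at P8; for each member the 2 genes nearest in profile (prior count 2, mean of at least 10 CPM). Alternatives were other scalings (RLE, upper quartile, none), filters (none; at least 1 CPM in 4 libraries), DESeq2 1.42.0, limma-voom (limma 3.58.1), a replicate block and each library left out.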

Additional observations from a re-analysis of the deposited data

Results flagged for a closer look

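In 8 of 90 groups of 4 libraries examined, the highest or lowest library stood apart from the others. It did so by more of the group's range than Dixon's 95% critical value for 4 values. The groups were both ages of the 9 genes, Slc1a3, Dcn and the genes named from the wider lists, except Rxrb. Chance flags about 1 group in 20. Apoe stood low in P8 3 at 7530 CPM, with the nearest P8 library at 11038 CPM, and so did its neighbour Apoc1 at 6.54 CPM (nearest 11.3 CPM) and Scp2 at 189 CPM (nearest 235 CPM). Slc1a3 was high in P8 2 at 5029 CPM (nearest 3919 CPM) and Abca4 in P8 4 at 21.1 CPM (nearest 7.60 CPM), the P8 library with the highest choroid plexus markers (3147 CPM summed). At P0, library P0 1 was low for Dab1 at 5.30 CPM (nearest 14.7 CPM) and high for Cav1 at 244 CPM (nearest 116 CPM), and P0 3 was high for Srebf1 at 418 CPM (nearest 313 CPM).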

How the results depend on the processing

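Across 16 alternatives the number of genes called was 6979 to 9382, against 8321, the number of the 9 genes called 5 or 6, against 6, and the number called in the wider lists 55 to 66, against 64. The 9 genes, Slc1a3, Dcn and the genes named from the wider lists, except Rxrb, were followed through these alternatives. Of them only Lrp8, which was not called, reversed its direction, with a log2 fold change of -0.02 without TMM and -0.12 without P0 1, against 0.06 (-0.12 to 0.18 over the libraries left out). Nr1h2 kept its call throughout (-0.56 to -0.42). Apoe, Apod, Abcg1, Scarb1 and Lcat kept their calls throughout, with log2 fold changes of 1.99 to 2.31, -4.42 to -3.61, -1.24 to -0.90, -0.78 to -0.52 and 4.45 to 4.84. Clu also lost its call without TMM (edgeR adjusted p = 0.0548). The fit with a replicate block called 7355 genes, 5 of the 9 (without Clu, adjusted p 0.0736) and 58 in the wider lists (without Trem2 at an adjusted p of 0.088 and Nr1h3 at 0.103), while same-numbered libraries did not deviate together (correlations across genes of -0.13 to 0.06) and not every library correlated best with its own number. Abcg8 had no value with at least 1 CPM in 4 libraries required.

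Leaving out 1 library gave log2 differences of 1.16 to 1.33 for Abca1 to Abcg1, 1.42 to 1.81 for Apoe to Clu and 5.85 to 6.45 for Apoe to Apod, all at an exact p of 0.0571, the smallest that 3 against 4 allows. With the replicate block by sign flips they were 1.25, 1.63 and 6.19, all at an exact p of 0.125, the smallest that 4 pairs allow. Neither test could pass the threshold.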
